A study of Mus musculus with 6 samples.

Results

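Acute-phase proteins and inflammatory cytokines were examined in white adipose tissue of mice lacking KSR2, which holds kinases of the Raf, MEK and ERK cascade together. The genes, chosen with earlier results of these data known, were fixed by name as Saa3, Saa1, Lcn2, Hp, Orm1, Serpina3n, Il1b, Il1rn, Il6 and Tnf. They were found by symbol in the annotation of the array, and all 10 were measured, out of 18193 genes in all. The study put total RNA of 3 KSR2-/- mice and of 3 wild-type (WT) mice on Affymetrix arrays, 1 array a mouse, and asked which groups of genes differ between the genotypes. All 6 animals are labelled as C57Bl6 females, 6 months of age. The sources used here name neither the fat depot nor the deleted part of Ksr2, and do not say whether the controls were littermates. Values are log2 of the robust multi-array average (RMA) intensity, and where a gene had several probe sets the one with the highest mean over the 6 arrays represents it.

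Acute-phase proteins are secreted in large amounts when inflammation sets in. The liver makes most of those in plasma, under the control of interleukin 6 through STAT3, and of interleukin 1 and tumour necrosis factor through NF-kB and C/EBP factors. Fat makes some of them itself. Adipocytes secrete haptoglobin and orosomucoid, and in the mouse Saa3 is the serum amyloid A gene transcribed outside the liver, in adipocytes and macrophages. In obese fat, macrophages are a known source of tumour necrosis factor, interleukin 1 beta and the interleukin 1 receptor antagonist.

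The labelled tissue was checked against adipocyte markers. Adipoq, which encodes adiponectin, measured between 12.70 and 13.40 log2 in KSR2-/- mice and between 13.46 and 13.58 in WT mice (difference -0.51, SE 0.21, limma adjusted p = 0.400). The fatty acid carrier Fabp4 and the carbonic anhydrase Car3 were as bright, with differences of -0.06 and -0.32 and overlapping groups. The Ksr2 probe set was dim, at 4.34 ± 0.12 in KSR2-/- and 4.42 ± 0.35 in WT fat (SD, n = 3 each), and since the deleted part is unknown it does not check the genotype labels. The animal numbers in the titles fall into a higher range (mice 1 and 2 of each genotype) and a lower one (mouse 3 of each genotype), whose meaning the labels do not give. RNA integrity was read from Gapdh, whose 3' probe set exceeded its 5' one by 0.47 to 1.46 log2 in KSR2-/- mice, against 0.07, 0.69 and 4.18 in WT mice, the last in mouse 3. The same array stood apart in skeletal muscle markers, with a mean of 7.34 log2 over 8 genes, against 5.05 to 5.39 in KSR2-/- mice and 4.22 and 5.17 in the other WT mice.

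Promoter windows of 5 genes are shown, because they let the letters around the starts of the acute-phase, antagonist and cytokine genes be compared. They run from 250 bases before to 50 bases after the RefSeq start on GRCm38.p6, and 8 of the 10 genes had one in the table used. Capitals mark matches, on either strand, to GGGA and CC with any 4 bases between them (NF-kB type), TTCNNNGAA (STAT type) and TTGCNNAA (C/EBP type). Among all 32851 promoter windows, 20.7% held the first, 8.3% the second and 10.8% the third, and 35.7% held any of the 3. Saa3 lies at chr7:46715627-46715926 (minus strand), Lcn2 at chr2:32387690-32387989 (minus), Serpina3n at chr12:104406458-104406757 (plus), the first of 3 Il1rn starts at chr2:24336610-24336909 (plus) and Il6 at chr5:30012864-30013163 (plus).
Saa3: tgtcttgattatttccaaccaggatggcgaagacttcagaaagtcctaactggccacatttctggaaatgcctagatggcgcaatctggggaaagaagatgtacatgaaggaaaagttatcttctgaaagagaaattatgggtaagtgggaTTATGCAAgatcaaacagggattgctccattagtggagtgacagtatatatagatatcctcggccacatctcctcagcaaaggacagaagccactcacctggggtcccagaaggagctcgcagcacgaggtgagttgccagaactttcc
Lcn2: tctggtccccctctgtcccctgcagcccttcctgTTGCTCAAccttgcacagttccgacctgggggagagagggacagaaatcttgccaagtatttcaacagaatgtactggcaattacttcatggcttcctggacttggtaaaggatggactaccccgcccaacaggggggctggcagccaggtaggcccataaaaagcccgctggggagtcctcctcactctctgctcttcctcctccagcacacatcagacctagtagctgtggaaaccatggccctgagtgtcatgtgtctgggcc
Serpina3n: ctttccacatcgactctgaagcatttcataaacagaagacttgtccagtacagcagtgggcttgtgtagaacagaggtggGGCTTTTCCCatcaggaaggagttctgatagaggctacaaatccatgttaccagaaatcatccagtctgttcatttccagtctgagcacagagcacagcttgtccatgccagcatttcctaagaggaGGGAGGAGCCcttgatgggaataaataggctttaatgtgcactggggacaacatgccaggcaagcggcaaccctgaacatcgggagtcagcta
Il1rn: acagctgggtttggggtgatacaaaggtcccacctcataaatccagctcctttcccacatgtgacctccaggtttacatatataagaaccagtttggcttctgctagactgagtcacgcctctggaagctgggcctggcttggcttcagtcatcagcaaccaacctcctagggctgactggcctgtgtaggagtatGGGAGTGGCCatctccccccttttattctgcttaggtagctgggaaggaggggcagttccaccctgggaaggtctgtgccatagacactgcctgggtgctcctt
Il6: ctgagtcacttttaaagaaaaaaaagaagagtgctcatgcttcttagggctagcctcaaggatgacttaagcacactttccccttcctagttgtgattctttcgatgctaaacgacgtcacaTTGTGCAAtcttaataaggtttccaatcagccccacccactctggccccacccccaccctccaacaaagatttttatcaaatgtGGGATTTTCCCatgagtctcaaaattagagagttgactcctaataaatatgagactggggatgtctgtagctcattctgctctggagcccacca
The Saa3 window held a C/EBP-type match at bases -99 to -92 from the start, and the Lcn2 window one at -216 to -209. Serpina3n held NF-kB-type matches at -170 to -161 and -43 to -34, and the first Il1rn window held one at -54 to -45. In Il6 the NF-kB-type letters matched on both strands in overlapping positions, -44 to -35 and -43 to -34, beside a C/EBP-type match at -128 to -121. No STAT-type match was found in any window of the 8 genes. The Il1b window and Il1rn windows 2 and 3, which are not shown, held no match of any type. These are matches of letters and not measured binding sites.

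Of the 10 genes, 8 had a higher mean in KSR2-/- than in WT fat, where 44.4% of all genes did, and in 6 (Saa3, Hp, Serpina3n, Il1rn, Il6 and Tnf) all 3 KSR2-/- arrays lay above all 3 WT arrays. Over all genes, 7.72% were separated in that direction, 8.56% in the other and 16.3% in either. Since the 10 genes were chosen with earlier results of these data known, their counts are a description and not a test of the set. The median difference of the 10 genes was 0.63 log2, against -0.04 over all 18193 genes. None of the 10 passed limma at an adjusted p under 0.05, where 0.0055% of all genes did. An unadjusted limma p under 0.05 was reached by 5 of the 10, all higher (Saa3, Hp, Serpina3n, Il1rn and Il6), against 6.71% of all genes higher and 5.38% lower. Exact permutation tests over the 20 splits of the arrays gave p = 0.1, the smallest that 3 against 3 arrays allow, for the 6 separated genes. Full separation fixes that p, so it adds nothing to the count of separated genes. Without KSR2-/- mouse 3, 3 of the 10 passed limma after adjustment (Saa3, Hp and Il1rn, all higher), where 4.49% of all genes did and 3.16% were higher. The labels call the arrays separate mice, and their small number limits the precision of every difference below.

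**Figure D1:**
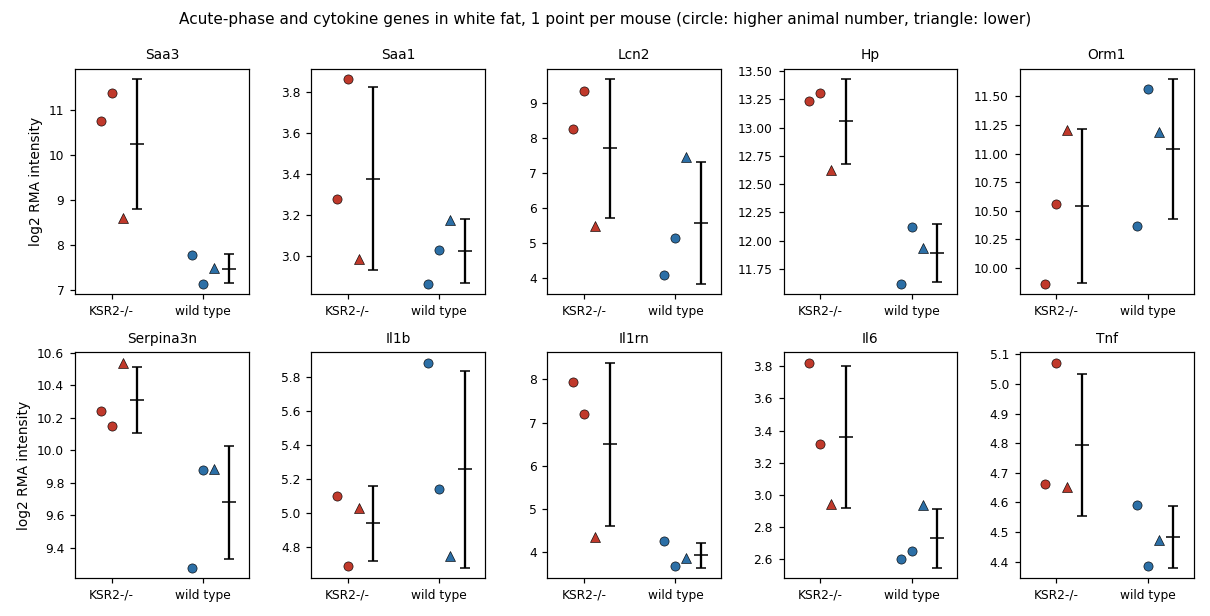
Log2 RMA intensity (vertical axes, a separate range for each gene) of the 10 genes in KSR2-/- mice (red, left) and WT mice (blue, right), 1 point per mouse, with group mean and SD (n = 3). Saa3, Hp, Serpina3n, Il1rn, Il6 and Tnf show no overlap, and Lcn2, Saa1, Orm1 and Il1b do; triangles are the lower-numbered mice.

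Saa3, the serum amyloid A isoform made in fat and macrophages, had the largest difference of the 10. Its log2 intensity was 10.76, 11.37 and 8.61 in KSR2-/- mice 1 to 3, against 7.79, 7.15 and 7.51 in WT mice 1 to 3. Mouse 3 of the knockouts was well below the other KSR2-/- mice and still above every WT mouse. The means were 10.25 ± 1.45 and 7.48 ± 0.32 (SD, n = 3 each), a difference of 2.76 log2 or 6.79-fold (SE 0.66, limma adjusted p = 0.240). Saa3 was at rank 20 of all genes by the size of a positive difference. It was 3.59 log2 higher among the higher-numbered mice and 1.11 higher in the lower-numbered pair. Without KSR2-/- mouse 3 the difference was 3.58 and the limma adjusted p was 0.00404. With any other array left out it was 2.20 to 2.92, with adjusted p of 0.345 to 0.718.

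The liver-type isoforms read low. The Saa1 probe set with the higher mean measured 3.28, 3.87 and 2.99 in KSR2-/- mice, against 2.86, 3.03 and 3.18 in WT mice, near the 15.8 percentile of all gene means. Its groups overlapped (difference 0.36, SE 0.25, limma adjusted p = 0.654), and the difference was 0.11 without KSR2-/- mouse 2 and 0.55 without mouse 3. The accession behind that probe set belongs to Saa2 in RefSeq, although the array annotation names it Saa1, so it may read Saa2 or both of these close copies. The other Saa1 probe set, whose accession is that of Saa1, measured 2.45 ± 0.24 in KSR2-/- and 2.47 ± 0.25 in WT fat. The probe set annotated as Saa2 measured 3.25 ± 0.22 and 3.11 ± 0.15 (KSR2-/- and WT, SD, n = 3 each). No probe set of Saa1 or Saa2 separated the groups, while that of Saa3 did. Saa1 and Saa3 are neighbours on chromosome 7, at 46740497 to 46743181 and 46711998 to 46719615 on GRCm38.p6.

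Hp encodes haptoglobin, which binds free haemoglobin and is secreted by adipocytes and liver. It measured 13.24, 13.31 and 12.62 in KSR2-/- mice, against 11.62, 12.12 and 11.94 in WT mice. Every KSR2-/- mouse was above every WT mouse, and the spread within each genotype was smaller than the gap between the means. The means of 13.06 ± 0.38 and 11.89 ± 0.26 differed by 1.16 log2 or 2.24-fold (SE 0.24, limma adjusted p = 0.206), and Hp had the smallest p of the 10, at rank 159 of all genes. It was higher by 1.40 among the higher-numbered mice and by 0.69 in the lower-numbered pair. Without KSR2-/- mouse 3 the difference was 1.38 and the limma adjusted p was 0.0226. Leaving out another array gave 1.03 to 1.28, with adjusted p of 0.296 to 0.718.

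Serpina3n encodes a serine protease inhibitor of the antichymotrypsin type. Its values were 10.24, 10.15 and 10.54 in KSR2-/- mice, against 9.28, 9.88 and 9.88 in WT mice. Here mouse 3 was the highest of the knockouts, unlike in Saa3, Hp and Il1rn. The difference was 0.63 log2 (SE 0.22, limma adjusted p = 0.335), with 0.62 among the higher-numbered mice and 0.66 in the lower-numbered pair. Serpina3 genes form a cluster of close copies on mouse chromosome 12, so the probe set may read related genes too.

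Lcn2, lipocalin 2, binds bacterial iron carriers and is secreted by neutrophils, macrophages, adipocytes and epithelia. Its values were 8.26, 9.33 and 5.50 in KSR2-/- mice, against 4.09, 5.16 and 7.47 in WT mice. The genotypes overlapped, since WT mouse 3 was above KSR2-/- mouse 3, and the mean difference of 2.12 log2 had an SE of 1.15 (limma adjusted p = 0.532). It was 1.31 without KSR2-/- mouse 2, 3.22 without KSR2-/- mouse 3, 1.38 without WT mouse 1 and 3.07 without WT mouse 3. Among the higher-numbered mice Lcn2 was 4.17 log2 higher in KSR2-/- (limma adjusted p = 0.0249 in a fit of those 4 arrays), the largest such difference of the 10. In the lower-numbered pair it was 1.97 lower (difference -1.97). WT mouse 3 also had the highest mammary epithelial markers, with a summed linear intensity of 1858 over 10 genes, against 236, 303 and 1030 in KSR2-/- mice and 288 and 336 in the other WT mice. The milk protein gene Csn3 measured 3.25, 3.09 and 6.17 log2 in KSR2-/- mice, against 3.93, 3.68 and 8.74 in WT mice, and the keratin gene Krt18 4.58, 5.70 and 8.14, against 4.63, 5.98 and 9.16. Other milk protein genes of the list were not raised in WT mouse 3. Csn2, Wap and Lalba measured 3.56, 3.89 and 3.98 there, against 3.58, 3.97 and 4.33 in WT mouse 1. The mean of Csn2 was below the 20 percentile of gene means. As given above, WT mouse 3 also stood apart in skeletal muscle markers and in Gapdh. The part of mammary or muscle tissue in the Lcn2 values was not tested.

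Orm1, orosomucoid 1, is a lipid-binding plasma glycoprotein that adipocytes also secrete. It measured 9.86, 10.56 and 11.20 in KSR2-/- mice, against 10.37, 11.56 and 11.19 in WT mice. The groups overlapped, and the difference was -0.50 log2 (SE 0.42, limma adjusted p = 0.717). It was -0.16 without KSR2-/- mouse 1, -0.83 without KSR2-/- mouse 3, -0.835 without WT mouse 1 and -0.24 without WT mouse 2. Its close copies were looked at after their values were seen. Orm3 measured 4.60, 3.98 and 5.59 in KSR2-/- mice, against 6.24, 7.23 and 5.95 in WT mice (difference -1.75, SE 0.48, limma adjusted p = 0.261). Orm2 measured 4.97, 4.63 and 5.36, against 4.22, 4.39 and 4.45 (difference 0.64, SE 0.21, limma adjusted p = 0.316). Orm2 was separated upwards and Orm3 downwards, and their probe sets may read each other's transcripts.

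Il1rn encodes the interleukin 1 receptor antagonist, which occupies the receptor without signalling. Its main probe set measured 7.93, 7.20 and 4.35 in KSR2-/- mice, against 4.25, 3.68 and 3.87 in WT mice. KSR2-/- mice 1 and 2 were high, and mouse 3 lay just above the highest WT mouse. The means of 6.49 ± 1.89 and 3.93 ± 0.29 differed by 2.56 log2 or 5.89-fold (SE 0.84, limma adjusted p = 0.313). Among the higher-numbered mice the difference was 3.60 and in the lower-numbered pair 0.48. Without KSR2-/- mouse 3 it was 3.63, with a limma adjusted p of 0.00413. Leaving out another array gave 1.84 to 2.72, with adjusted p of 0.381 to 0.774.

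The other Il1rn probe sets gave smaller differences in the same direction. One measured 6.56, 5.13 and 4.76 in KSR2-/- mice, against 4.98, 4.45 and 4.55 in WT mice (difference 0.83, SE 0.46, limma adjusted p = 0.601 in a fit of every probe set). The other measured 6.16, 5.36 and 3.61, against 4.26, 3.42 and 3.65 (difference 1.27, SE 0.62, adjusted p = 0.539 in the same limma fit). Both overlapped between genotypes through KSR2-/- mouse 3. In WT mice the first of them was brighter than the main probe set, with means of 4.66 and 3.93. The main one had the highest mean over all 6 arrays through its KSR2-/- values, so that rule favoured the larger difference. With the 3 probe sets averaged, Il1rn differed by 1.55 log2 and its groups overlapped.

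**Figure D2:**
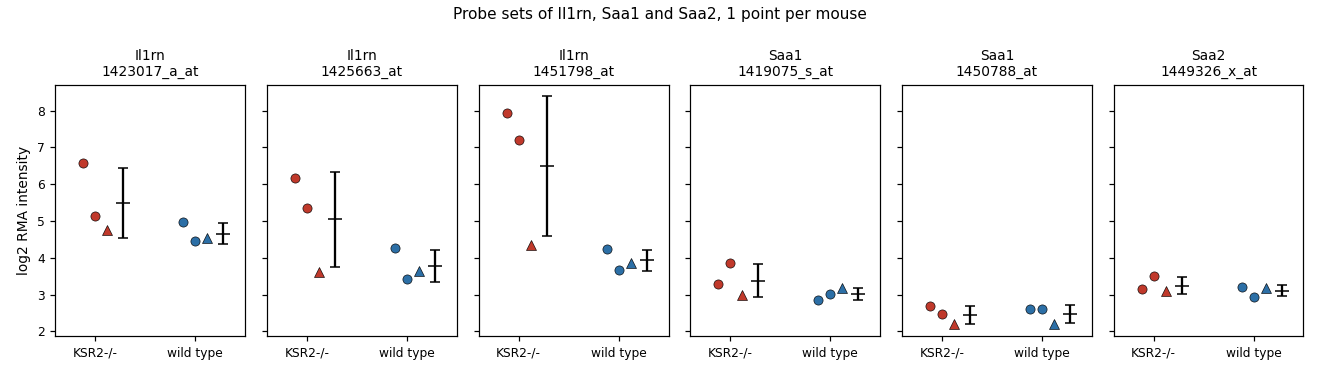
Log2 RMA intensity (vertical axis, shared) of every probe set of Il1rn, Saa1 and Saa2, named above each panel, in KSR2-/- mice (red, left) and WT mice (blue, right), with group mean and SD (n = 3). In all 3 Il1rn probe sets KSR2-/- mice 1 and 2 lie above every WT mouse, and the Saa1 and Saa2 probe sets stay below 4 log2.

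The agonist did not show the pattern of its antagonist. Il1b, interleukin 1 beta, measured 5.10, 4.69 and 5.03 in KSR2-/- mice, against 5.89, 5.14 and 4.74 in WT mice. The groups overlapped, with a difference of -0.32 log2 (SE 0.30, limma adjusted p = 0.753). Without WT mouse 1, which held the highest value, the difference was -0.0047, and it was -0.19 without KSR2-/- mouse 2 and -0.575 without WT mouse 3. Il1b and Il1rn are both on chromosome 2, at 129364569 to 129371164 and 24336860 to 24351491 on GRCm38.p6.

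Il6 and Tnf were separated by narrow margins at low signal. Il6, interleukin 6, the main inducer of the hepatic acute-phase response, measured 3.82, 3.31 and 2.95 in KSR2-/- mice, against 2.60, 2.65 and 2.94 in WT mice. Its mean lay at the 13.2 percentile of all gene means, and in the lower-numbered pair the genotypes differed by 0.01 log2. The overall difference was 0.63 (SE 0.25, limma adjusted p = 0.380), and 0.40 without KSR2-/- mouse 1. Tnf, tumour necrosis factor, measured 4.66, 5.07 and 4.65 in KSR2-/- mice, against 4.59, 4.39 and 4.47 in WT mice. That is a difference of 0.31 (SE 0.18, limma adjusted p = 0.556), which was 0.17 without KSR2-/- mouse 2, and after centring the arrays on their median gene the groups of Tnf, and those of Il1rn, overlapped.

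**Figure D3:**
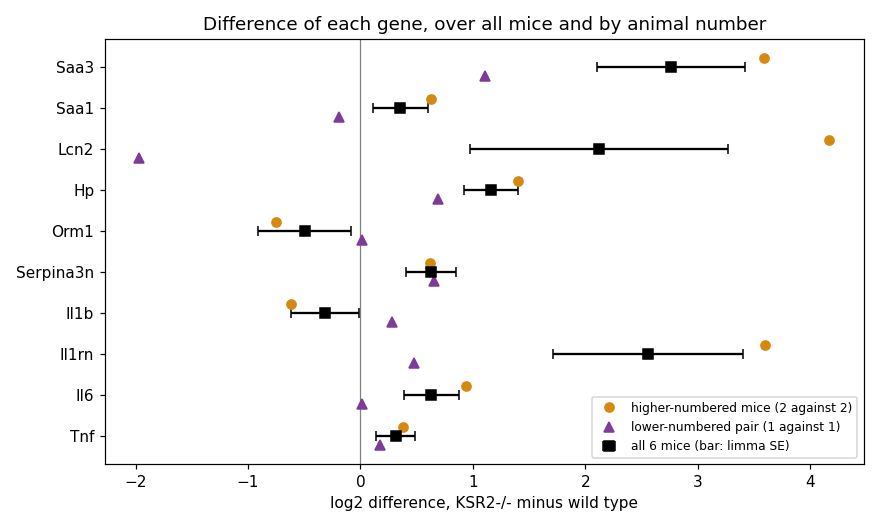
Log2 difference, KSR2-/- minus WT (horizontal axis), of the 10 genes over all 6 mice (black squares, bars are the limma SE), among the higher-numbered mice (orange circles) and in the lower-numbered pair (purple triangles). Serpina3n has nearly the same difference in both, 0.62 and 0.66, while Lcn2 goes opposite ways, 4.17 and -1.97.

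The mice of 1 genotype did not behave alike. Relative to the WT mean, Saa3 was higher by 3.27 and 3.89 log2 in KSR2-/- mice 1 and 2 and by 1.13 in mouse 3, and Il1rn by 3.99, 3.27 and 0.41. As a list, macrophage markers were also highest in KSR2-/- mice 1 and 2. Their mean over 12 genes was 9.30, 9.42 and 8.29 log2 in KSR2-/- mice, against 8.01, 8.18 and 8.06 in WT mice. Their summed linear intensity, which weights the brightest genes most, was 25071, 22873 and 10249 in KSR2-/- mice, against 8960, 9349 and 9891 in WT mice. Of the 12, 11 had a difference above 0, against 44.4% of all genes, and 4 were separated and higher, against 7.72%. Cd163 was lower (difference -0.58, SE 0.32, limma adjusted p = 0.551). None of the 12 was below the 20 percentile. The brightest were Lyz2, the lysozyme of myeloid cells, and the receptor gene Csf1r, with differences of 0.95 and 0.70 (SE 0.34 and 0.28, limma adjusted p = 0.353 and 0.395). Markers of lipid-associated macrophages summed to 39749, 36599 and 21289 over 8 genes in KSR2-/- mice, against 17405, 16993 and 17745 in WT mice. Lpl, at 13.40 to 13.51 log2 in every mouse, made up most of the WT sums and differed by -0.01. The other 7 were all separated and higher, where 7.72% of all genes were. KSR2-/- mouse 3 also stood apart in mesothelial markers. These summed to 1033.5, 1432.6 and 3928.8 over 8 genes in KSR2-/- mice, against 1331, 1358 and 2020 in WT mice. Whether this bears on the fits without that mouse was not tested. In bulk tissue more cells of a type and more RNA per cell cannot be told apart, and the part of macrophages in the values of Saa3, Il1rn and Hp was not tested.

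Other cell types that make these proteins were checked in the same way. Of 10 neutrophil markers, 2 were separated and higher in KSR2-/- (S100a8 and Csf3r), where 7.72% of all genes were. Their summed linear intensity was 1589, 1907 and 847 in KSR2-/- mice, against 497, 618 and 893 in WT mice, and Cxcr2 and Mmp8 were dim. The brightest, the calprotectin genes S100a8 and S100a9, differed by 2.31 and 0.92 (SE 0.47 and 0.70, limma adjusted p = 0.197 and 0.686), and S100a9 overlapped. Ltf, also on this list, measured 4.34, 4.00 and 5.83 in KSR2-/- mice, against 4.38, 4.13 and 9.22 in WT mice. It made up most of the neutrophil sum in WT mouse 3, where S100a8 and S100a9 had their lowest values, 7.17 and 4.64. Of 8 hepatocyte markers Cps1 and F2 had means below the 20 percentile. Their sum was 221, 179 and 408 in KSR2-/- mice, against 493, 765 and 509 in WT mice, and Alb, which encodes albumin, was lower in every KSR2-/- mouse than in every WT mouse (difference -2.35, SE 0.70, limma adjusted p = 0.280). Ttr, transthyretin, differed by -0.09, and Ahsg was separated upwards. Adipocyte markers summed to 39925, 47875 and 65323 over 9 genes in KSR2-/- mice and to 55322, 64362 and 63511 in WT mice, so these sums overlapped. Of the 9, 2 had a difference above 0, against 44.4% of all genes. Lep was separated upwards and Adipoq and Retn downwards, where 7.72% and 8.56% of all genes were. Without Alb, a choice made after seeing the data, the other 7 hepatocyte markers summed to 180, 131 and 149 in KSR2-/- mice, against 167, 151 and 175 in WT mice, and these overlapped.

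**Figure D4:**
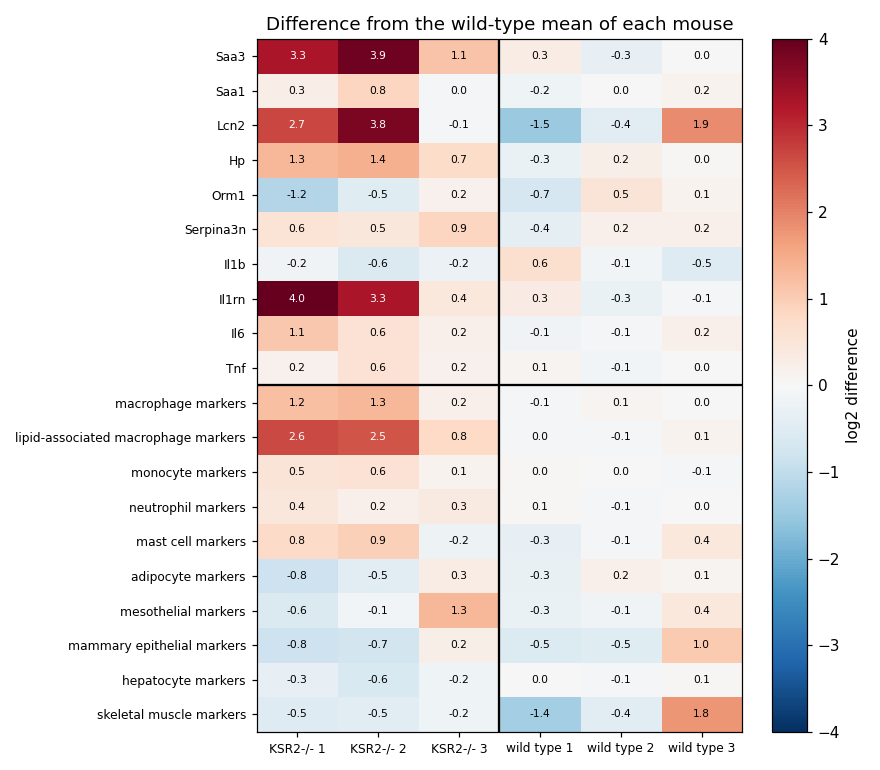
Log2 difference of each mouse (columns) from the mean of the 3 WT mice, for the 10 genes (upper rows) and for the mean of each list of cell type markers (lower rows); red is higher and blue lower, on a scale from -4 to 4. Saa3, Lcn2 and Il1rn are highest in KSR2-/- mice 1 and 2, as are macrophage and lipid-associated macrophage markers. In WT mouse 3, Lcn2 is raised by 1.89, skeletal muscle markers by 1.76 and mammary markers by 1.04.

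Other acute-phase genes went both ways. Of 21 measured, 0 passed limma over all genes, 5 were higher and 4 lower at an unadjusted p under 0.05, and the median difference was -0.05 log2. Over all genes, 44.4% had a difference above 0, and 6.71% were higher and 5.38% lower at that p. The median of the list was 0.90 when only genes of at least the median level were kept, 0.02 with quantile normalization repeated and 0.05 without WT mouse 1. Lrg1, leucine-rich alpha-2 glycoprotein, measured 11.84, 11.68 and 11.17 in KSR2-/- mice, against 9.85, 10.47 and 10.05 in WT mice (difference 1.44, SE 0.25, limma adjusted p = 0.193). It was higher in every KSR2-/- mouse and passed limma without KSR2-/- mouse 3 (adjusted p = 0.0186). Lbp, which presents bacterial lipopolysaccharide to CD14, measured 10.43, 10.69 and 11.08, against 8.50, 9.61 and 9.86 (difference 1.41, SE 0.37, limma adjusted p = 0.248). Cp, the copper-carrying ferroxidase ceruloplasmin, went the other way, with 7.94, 8.61 and 7.88 in KSR2-/- mice against 9.71, 10.19 and 9.35 in WT mice (difference -1.61, SE 0.29, limma adjusted p = 0.193). Hpx, which encodes the haem scavenger hemopexin, was named after its values were seen, because it was high in KSR2-/- mice 1 and 2 as Il1rn was. It measured 6.73, 7.49 and 3.92 in KSR2-/- mice, against 3.70, 3.54 and 3.92 in WT mice (difference 2.33, SE 0.83, limma adjusted p = 0.341). Of the 21 genes, 9 were dim, among them the liver genes Crp, Apcs, Hamp and the fibrinogen genes Fga, Fgb and Fgg.

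Other cytokine genes showed little difference. Of 21 measured, 11 had a difference above 0, against 44.4% of all genes, and 0 passed limma. At an unadjusted p under 0.05 there were 0 higher and 1 lower, where 6.71% and 5.38% of all genes were. The median difference was 0.01 log2. That median was below 0 without any 1 of the arrays. The 1 was Tnfsf13b, the B cell survival factor BAFF, at 6.53, 6.52 and 6.72 in KSR2-/- mice against 6.82, 6.99 and 7.32 in WT mice (difference -0.45, SE 0.18, limma adjusted p = 0.393). Lif, a cytokine of the interleukin 6 family, differed by 0.32 (SE 0.17) and Il17a by -0.26 (SE 0.15), with limma adjusted p of 0.521 and 0.553. Il1a, Il12a, Il12b, Il23a, Ifng, Il17a and Lta were dim.

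Of 16 cytokine receptor genes, 12 had a difference above 0, against 44.4% of all genes, and the median was 0.36 log2. The median was 0.10 with the probe sets of each gene averaged and -0.10 in the lower-numbered pair. None passed limma, and 4 were higher and 0 lower at an unadjusted p under 0.05, where 6.71% and 5.38% of all genes were. Osmr, the oncostatin M receptor, differed by 0.52 (SE 0.16, limma adjusted p = 0.302) and by 0.09 with its probe sets averaged, and Ifngr2, a subunit of the interferon gamma receptor, by 0.84 (SE 0.31, limma adjusted p = 0.353). Tnfrsf1b, the second receptor for tumour necrosis factor, measured 8.10, 8.38 and 7.19 in KSR2-/- mice, against 6.69, 6.59 and 7.24 in WT mice. Its groups overlapped in mouse 3 (difference 1.05, or 0.50 with probe sets averaged, SE 0.34, limma adjusted p = 0.308), and without KSR2-/- mouse 3 it passed limma (adjusted p = 0.0373).

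Among 12 receptors and partners of acute-phase proteins the median difference was 0.23, and -0.28 in the lower-numbered pair, with 0 past limma. At an unadjusted p under 0.05, 2 were higher and 1 lower, where 6.71% and 5.38% of all genes were. Hmox1, the haem oxygenase that breaks down haem taken up from haemoglobin, measured 10.10, 9.11 and 7.03 in KSR2-/- mice, against 6.48, 6.43 and 6.70 in WT mice (difference 2.21, SE 0.70, limma adjusted p = 0.302, and 0.00720 without KSR2-/- mouse 3). Mmp9, a gelatinase listed here as a partner of lipocalin 2, was lower. It measured 5.45, 5.37 and 6.16 in KSR2-/- mice, against 6.34, 7.27 and 7.13 in WT mice (difference -1.25, SE 0.32, limma adjusted p = 0.248). Lrp2, the endocytic receptor megalin, differed by 0.63 (SE 0.20, limma adjusted p = 0.309). Over all arrays the mean differences of Lcn2 and Mmp9 had opposite signs, but the Lcn2 groups overlapped. In the lower-numbered pair both were lower in KSR2-/- (differences -1.97 and -0.97).

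Targets and regulators of NF-kB were mostly higher, 16 of 19 with a difference above 0, where 44.4% of all genes had one. Their median was 0.48 log2 and 0.05 in the lower-numbered pair, and 0 passed limma. At an unadjusted p under 0.05, 6 were higher and 1 lower, where 6.71% and 5.38% of all genes were. The lower 1, named after its values were seen, was Ptgs2, whose groups overlapped. It measured 4.34, 4.11 and 4.24 in KSR2-/- mice, against 7.29, 8.00 and 4.03 in WT mice (difference -2.21, SE 0.93, limma adjusted p = 0.411). Nfkb2, the p100 subunit of the non-canonical pathway, measured 6.93, 6.96 and 7.14 in KSR2-/- mice, against 6.00, 6.29 and 6.33 in WT mice (difference 0.81, SE 0.16, limma adjusted p = 0.197). Tnip1, which restrains NF-kB together with A20, differed by 0.59 (SE 0.17, limma adjusted p = 0.275). Tnfaip2, a gene induced by tumour necrosis factor, measured 9.28, 9.13 and 7.54, against 6.62, 6.44 and 6.96 (difference 1.98, or 1.17 with probe sets averaged, SE 0.46, limma adjusted p = 0.234, and 0.00478 without KSR2-/- mouse 3). Nfkb2 was as high in mouse 3 as in the other KSR2-/- mice, while Tnfaip2 was not.

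The STAT3 and C/EBP list had 10 of 15 genes above 0, against 44.4% of all genes, and a median of 0.44, which was 0.70 without KSR2-/- mouse 3 and 0.28 without WT mouse 1. None passed limma, and 7 were higher and 0 lower at an unadjusted p under 0.05, where 6.71% and 5.38% of all genes were. Timp1, an inhibitor of metalloproteinases induced by the interleukin 6 family, measured 8.76, 9.90 and 7.20 in KSR2-/- mice, against 5.33, 5.45 and 6.24 in WT mice (difference 2.95, SE 0.64, limma adjusted p = 0.212, and 0.00984 without KSR2-/- mouse 3). Junb, an AP-1 factor, differed by 1.43 (SE 0.33, limma adjusted p = 0.234) and the repressor Bcl6 by 0.98 (SE 0.24, limma adjusted p = 0.248). All 3 genes were separated between genotypes. The C/EBP genes of the list went both ways and overlapped: Cebpb differed by 0.50, Cebpa by -0.34 and Cebpd by -0.45.

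Genes of the inflammasome, which activates caspase 1 to cut interleukin 1 beta, had 9 of 11 above 0, against 44.4% of all genes, and a median of 0.41, which was 0.04 in the lower-numbered pair. None passed limma, and 4 were higher and 0 lower at an unadjusted p under 0.05, where 6.71% and 5.38% of all genes were. Casp1 measured 9.16, 9.35 and 8.80 in KSR2-/- mice, against 7.55, 8.35 and 8.58 in WT mice (difference 0.94, SE 0.30, limma adjusted p = 0.302). The adaptor Pycard differed by 1.05, or 0.43 with probe sets averaged (SE 0.38, limma adjusted p = 0.356, and 0.0407 without KSR2-/- mouse 3) and the ATP-gated channel P2rx7 by 1.02 (SE 0.35, limma adjusted p = 0.322). Casp1 was separated between the genotypes, and Pycard and P2rx7 overlapped. Lrg1, Tnfrsf1b, Hmox1, Tnfaip2, Timp1 and Pycard passed limma without KSR2-/- mouse 3 and with no other array left out, where their adjusted p was 0.268 to 0.781. These are all higher in KSR2-/-. Genes that passed without that mouse went both ways, and also included Hpx, Lyz2, Csf1r and S100a8 (higher). Lower ones were Orm3, Alb and Retn (limma adjusted p = 0.0424, 0.00676 and 0.0108).

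**Figure D5:**
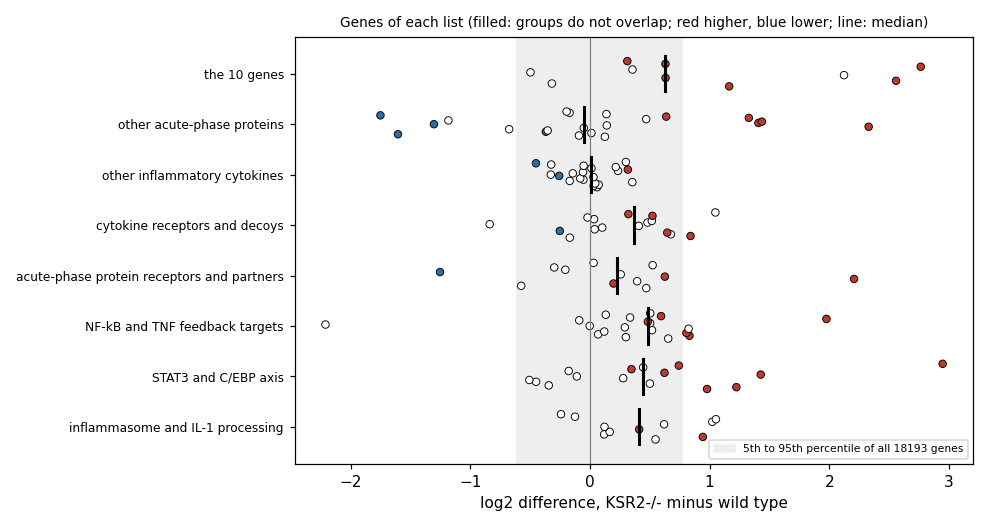
Log2 difference, KSR2-/- minus WT (horizontal axis), of each gene of the 10 and of 7 related lists (rows), with the median as a black line; filled points are genes whose groups do not overlap, red higher and blue lower in KSR2-/-. The grey band spans the 5 to 95 percentile of all genes, -0.61 to 0.77 log2; the other acute-phase genes lie on both sides of it, with Hpx at 2.33 and Orm3 at -1.75.

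Some of the 10 genes ordered the 6 arrays alike, as a description over points that share the genotype difference. Pearson's r was 0.96 between Saa3 and Il1rn and 0.92 between Saa3 and Hp, and it was -0.79 between Orm1 and Il1rn. Among 8917 or 8918 other genes of at least median level, those most like Saa3 were Myo1g and Ccnd1 (r = 0.997 and 0.996), and those most like Hp were Scarb2 and the chemokine gene Ccl2 (r = 0.995 and 0.994). Il1rn was most like Tns3 and Slc7a1 (r = 0.997 and 0.996), and Lcn2 most like Nod1 and Frmd4b (r = 0.989 and 0.988). Orm1 and Il1b, whose groups overlapped, had best values of 0.997 and 0.981 (with Prorp and Atp5g3). Over 6 arrays such a high best r was thus not particular to the separated genes.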

How the data were processed

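RMA intensity values, deposited by the authors, were analysed. RMA is named per the submitters' processing notes, without a version, and the linear scale was read from the values (lowest 2.96, array medians 22.4 to 24.2), so log2 was taken with no pseudocount. RMA normalizes and summarises all arrays together. Of 45101 probe sets, 34945 had 1 gene symbol, 932 several and 9160 none listed; 64 were controls. Symbols were updated by gene identifier through RefSeq (GRCm38.p6), matching 34741 probe sets. Each of 18193 genes was represented by its brightest probe set on average, with no filter. KSR2-/- and WT were compared by limma 3.58.1 in R 4.3.3, two-sided. Its p-values were adjusted across the 18193 genes by Benjamini and Hochberg's method, with calls at 0.05. The procedure was tested on simulated data. "Dim" means a gene mean below the 20 percentile (3.46 log2).

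The genes, lists, motifs and naming rule (the 10 genes, of each related list the 3 with the smallest p, and the 2 brightest macrophage, neutrophil, hepatocyte and adipocyte markers) were chosen with earlier results of these data known. The arrays carry no shared replicate numbers. Alternatives were a filter, other probe set rules, 2 normalizations, 2 variance models, the animal number range as a block or apart, Gapdh integrity as a covariate, and leaving out each array.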

Additional observations from a re-analysis of the deposited data

How the results depend on the processing

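Of the recomputed differences of the 10 genes, 155 kept their direction and their side of the threshold, 6 newly passed limma (all through leaving out KSR2-/- mouse 3 or the lower-numbered pair) and 4 turned sign, all 4 in the lower-numbered pair (Saa1 -0.19, Lcn2 -1.97, Orm1 0.014 and Il1b 0.28). The count of the 10 past limma was 0 in all other fits, 3 within the higher-numbered mice (Saa3, Lcn2 and Il1rn) and 0 to 3 with 1 array left out. The 3 without KSR2-/- mouse 3 were Saa3, Hp and Il1rn, in a fit where 4.49% of all genes passed. All genes past limma numbered 1, and 12 with the filter (where 3 of the 5 remaining genes of the 10 were separated), 12 with quantile normalization repeated on the gene table, 16 with arrays centred on the median gene, 10 with a variance trend (robust or not), 6 with the Gapdh covariate, 0 with the animal number range as a block or every probe set fitted, 487 within the higher-numbered mice, and 0 to 816 with 1 array left out. The separated genes numbered 4 with arrays centred, 5 with probe sets averaged and 6 to 8 with 1 array left out, where the 8 without WT mouse 3 held Il1b, lower in KSR2-/-. Averaging probe sets also moved Saa1 to 0.17, Il1rn to 1.55, Tnfsf13b to -0.21, Lif to 0.19 and Lrp2 to 0.39. Of the list medians, 13 moved by more than the spread between KSR2-/- mice and 99 did not. The cause of these shifts was not tested. No paired analysis was possible because the labels give no replicate numbers that the genotypes share. Low signal limits Saa1 and Il6, whose means are dim.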
